A study of Mus musculus with 18 samples.

Results

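The mRNA of 7 receptors that bind chemokines or, in 1 case, the chemoattractant chemerin, Ccr1, Ccr2, Ccr3, Ccr7, Ccrl2, Cxcr4 and Cx3cr1, was described in mouse bone marrow-derived macrophages (BMDMs). They were chosen by name from the deposited table and made up 7 of its 25926 genes. Expression was measured by RNA-seq as FPKM, which is the number of mapped fragments scaled to gene length and to the total of the sample, in 18 samples of 3 groups. The question was how BMDMs respond to kidney tubular epithelial cells (TECs) that have been given calcium oxalate monohydrate (COM) crystals, the mineral of many kidney stones, and what Met adds to this.

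All BMDMs came from C57BL/6J mice and were grown from bone marrow for 7 days in 50 ng/mL M-CSF. They sat in the upper chamber of a Transwell plate with 0.4 µm pores, above TECs of wild-type mice, so that soluble factors could pass between the 2 chambers. In the NC group the BMDMs received PBS and the TECs no crystals. In the COM group PBS went to the BMDMs and 100 µg/mL COM to the TECs, for 24 h. In the COM+Met group the TECs received the same crystals and the BMDMs 5.0 mM Met for 24 h. The labels do not spell out Met, and 1 protocol sentence can be read as giving it to the COM group too, whereas the sample labels give PBS there. Each group had 6 samples. Nothing states that they came from separate mice or cultures, so the p-values reflect how far these samples differ among themselves, and that may be technical variation alone. The methods give an age of 6 to 8 weeks for C57BL/6J mice, without naming the BMDM donors, and no date or batch is given in the labels.

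Samples within a group did not all resemble each other. Across genes, log2 values of NC-5 and NC-6 correlated with those of NC-1 to NC-4 at r = 0.938 to 0.962, against 0.985 to 0.995 among NC-1 to NC-4. COM-1 to COM-3 correlated with COM-4 and COM-5 at 0.948 to 0.951, against 0.992 to 0.994 among COM-1 to COM-3, and COM-6 stood at 0.888 to 0.935 with the other COM samples. The 6 COM+Met samples correlated at 0.989 to 0.995. Of the receptors, 5 (Ccr1, Ccr2, Ccr7, Cxcr4 and Cx3cr1) were each higher in COM-1, COM-2 and COM-3 than in the other 3, and Ccrl2 was lower there, without overlap. Changes are therefore also given without these samples for many of the results that moved. All 9 macrophage markers examined, Adgre1, Csf1r, Cd68 and Lyz2 among them, averaged at least 1 FPKM in every group, as the label BMDM requires. Of 12 markers of tubular epithelium, Cdh1 alone averaged at least 1 FPKM in NC, and none did in COM or COM+Met. Of 7 stromal markers, 6 did so in NC, 4 in COM and 1 in COM+Met. The highest mean among them was 17.7 FPKM for Col1a2 in NC, and 4.81 and 2.93 for Pdgfrb in COM and COM+Met. The part of stromal cells in the receptor values was not tested. The total FPKM of a sample lay between 380731 and 449186. FPKM values do not give the number of reads, so the depth is unknown and no counting interval can be given.

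Chemokine receptors are 7-pass membrane proteins that signal through inhibitory G proteins and steer cells along gradients of chemokines. Ccr2 lets monocytes leave the bone marrow and enter inflamed tissue, and Ccr1 serves the recruitment of myeloid cells. Ccr7 guides mature dendritic cells to lymph nodes, Cxcr4 holds cells in the marrow, and Cx3cr1 marks patrolling monocytes and many resident macrophages. Ccr3 is best known on eosinophils. Ccrl2 is an atypical receptor that binds chemerin and presents it to neighbouring cells without signalling by itself.

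Mouse chromosome 9 holds 5 of the 7 genes in the GRCm38 build. Ccr1 at chr9:123962124-123968692 on the minus strand, Ccr3 at chr9:124021972-124031689 on the plus strand and Ccr2 at chr9:124101950-124113557 on the plus strand are neighbours, with gaps of 53279 and 70260 bases between them. Ccrl2 at chr9:111054486-111057519 and Cx3cr1 at chr9:119901616-120069879, both on the minus strand, lie further off on that chromosome. Cxcr4 is at chr1:128588199-128592293 and Ccr7 at chr11:99144196-99155077, both on the minus strand. All 7 are protein coding. Exons of Cx3cr1 overlap those of the antisense gene Gm33858. Since the sources do not say that counting used the strand, reads from the overlap cannot be told apart. Of the 50-base stretches of their transcripts, 1.06% for Cx3cr1 and 1.91% for Ccr2 also occur in other genes, so a small part of both values is uncertain.

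The 250 bases before the start sites of Ccrl2 and Ccr1 are shown, because these 2 genes changed in opposite directions in all 3 comparisons below and because both windows hold a match to the consensus site of NF-kappa B, a transcription factor of the inflammatory response. The sequences are from RefSeq on GRCm38.p6, at chr9:111057519-111057768 for Ccrl2 and chr9:123968693-123968942 for Ccr1, both on the minus strand and read 5′ to 3′. Capitals mark the match.
Ccrl2: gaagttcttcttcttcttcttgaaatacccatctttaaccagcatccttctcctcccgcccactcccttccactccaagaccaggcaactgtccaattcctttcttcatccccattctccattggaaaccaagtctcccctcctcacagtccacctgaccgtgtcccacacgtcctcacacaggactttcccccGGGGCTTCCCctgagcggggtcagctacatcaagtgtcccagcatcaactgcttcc
Ccr1: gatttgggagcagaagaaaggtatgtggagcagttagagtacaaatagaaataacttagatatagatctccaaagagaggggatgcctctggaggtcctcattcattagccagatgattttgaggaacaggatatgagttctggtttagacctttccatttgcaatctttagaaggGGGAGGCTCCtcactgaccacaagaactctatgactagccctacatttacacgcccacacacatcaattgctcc
The match begins 56 bases before the start site in Ccrl2, where it reads as a site on both strands, and 74 bases before it in Ccr1. RefSeq windows of 300 bases, from 250 before to 50 after each start, were found for 6 of the 7 receptors, 8 windows in all, and 3 genes held the NF-kappa B consensus on either strand, the other being Ccr3 at 179 bases before its start. Of 32851 promoter windows of that length, 8.46% hold it. The core of the interferon-stimulated response element, which 3.44% of all windows hold, was in none of the 8, nor was the STAT site TTCNNNGAA, which 8.3% hold. The core site of the macrophage factor PU.1, GAGGAA, which 28.3% hold, was in the Ccr1 and Ccr3 windows, in Ccr3 overlapping the NF-kappa B match. All sites were searched on both strands. These matches describe letters in the windows and do not say that a factor binds there.

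Which receptor was most abundant differed between the groups. In NC the order of mean FPKM was Ccr1, Cxcr4, Ccrl2, Ccr7, Ccr2, Cx3cr1 and Ccr3, with the samples of Ccrl2 overlapping those of Ccr7, and these those of Ccr2. In COM it was Ccr7, Ccrl2, Cxcr4, Ccr1, Cx3cr1, Ccr2 and Ccr3, and the first 4 overlapped from each to the next, as did the last pair. In COM+Met it was Ccrl2, Ccr7, Cxcr4, Ccr1, Cx3cr1, Ccr2 and Ccr3, and no neighbours in that order overlapped. The summed FPKM of the 7 receptors had a median of 139.2 in NC, 289.0 in COM and 258.3 in COM+Met. Ccr1 held 46.4% to 56.6% of that sum in the NC samples, 9.37% to 11.2% in COM and 3.2% to 5.2% in COM+Met. Ccr7 and Ccrl2 exchanged the lead within the COM group. Ccr7 held 58.5% to 61.6% in COM-1, COM-2 and COM-3, where Ccrl2 held 13.9% to 14.8%, and 24.8% to 27.1% in the other 3, where Ccrl2 held 52.6% to 59.0%. In every COM+Met sample Ccrl2 led, with 61.8% to 68.8%.

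**Figure D1:**
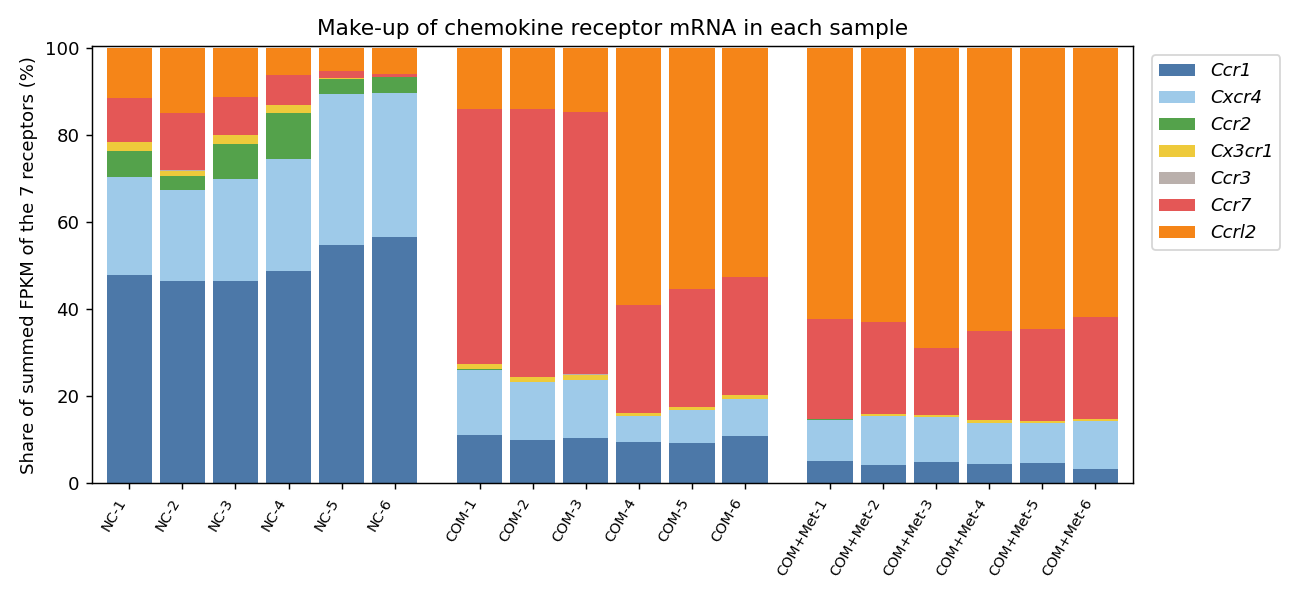
Share of the summed FPKM of the 7 receptors (%, vertical axis) taken by each receptor in each of the 18 samples (1 bar a sample). Ccr1 and Cxcr4 fill most of the NC bars, Ccr7 leads in COM-1 to COM-3, and Ccrl2 leads in COM-4 to COM-6 and in all 6 COM+Met samples.

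**Figure D2:**
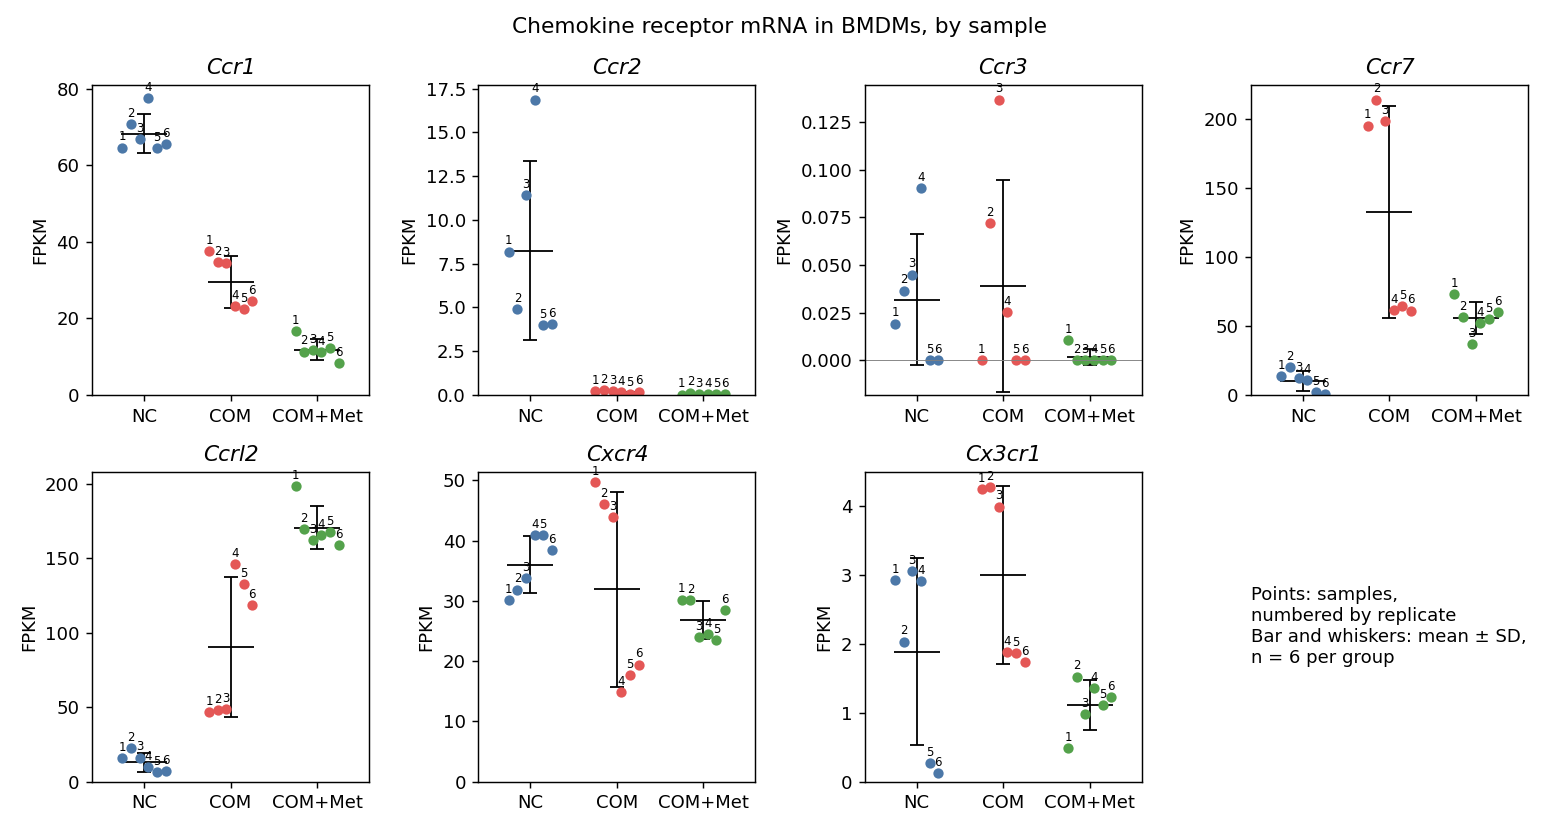
FPKM of each receptor (vertical axes, linear, 1 panel a gene) in the NC, COM and COM+Met samples. Points are samples numbered by replicate, and bars with whiskers give the mean ± SD of 6 samples. Ccr1 stands apart in all 3 groups, and Ccr7, Ccrl2, Cxcr4 and Cx3cr1 each split COM-1 to COM-3 from COM-4 to COM-6.

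Ccr1, a receptor for Ccl3, Ccl5, Ccl6 and Ccl9, was lower in COM than in NC and lower again in COM+Met. Its lowest, median and highest FPKM were 64.5, 66.2 and 77.6 in NC, 22.4, 29.5 and 37.5 in COM, and 8.23, 11.5 and 16.6 in COM+Met. No sample of 1 group overlapped another group. The means were 68.3 ± 5.09 (SD, n = 6) in NC, 29.5 ± 6.78 (SD, n = 6) in COM and 11.9 ± 2.71 (SD, n = 6) in COM+Met. On the scale of log2(FPKM + 1), used for all fold changes here, Ccr1 fell by 1.21 in COM against NC (SE 0.14, limma adjusted p = 1.91e-05). With Met added it fell by 1.24 against COM (SE 0.168, limma adjusted p = 0.000607) and by 2.45 against NC (SE 0.118, limma adjusted p = 1.28e-09). The drop in COM passed the test with either part of that group, at -0.92 without COM-4, COM-5 and COM-6, which is under 2-fold, and -1.504 without COM-1, COM-2 and COM-3. For COM+Met against COM the corresponding values were -1.53 and -0.95, so that the size, though not the test, went under 2-fold in the second case.

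Ccr2, the receptor for Ccl2, Ccl7 and Ccl12, was all but lost in the presence of crystal-treated TECs. The lowest, median and highest FPKM were 4.003, 6.55 and 16.9 in NC but 0.075, 0.195 and 0.264 in COM, and 0.0212, 0.0465 and 0.127 in COM+Met. Every NC sample lay above every other sample, and the lowest NC samples were NC-5 and NC-6. The NC mean of 8.24 ± 5.12 (SD, n = 6) was 44.0 times the COM mean of 0.187 ± 0.0643 (SD, n = 6). On the log2 scale, which understates changes of low genes, Ccr2 fell by 2.79 in COM against NC (SE 0.282, limma adjusted p = 6.17e-06) and by 2.96 in COM+Met against NC (SE 0.28, limma adjusted p = 6.69e-07). Between COM and COM+Met both means were below the filter of 1 FPKM used for the test across genes. The COM+Met mean was 0.055 ± 0.0369 (SD, n = 6), and 1 COM+Met sample overlapped the COM group. By an exact permutation test, two-sided and not adjusted, the difference of means of -0.17 gave p = 0.00433. Since reads are not known at these levels, how many fragments stand behind this difference is unknown.

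The fall of Ccr2 did not go together with a general loss of monocyte markers. Of 5 such markers, 3 were tested in COM against NC. Ly6c2, a surface protein of inflammatory monocytes, rose by 3.55 (limma adjusted p = 0.000434) and Plac8 by 1.69 (limma adjusted p = 0.002), the latter at 0.99 without COM-4, COM-5 and COM-6. The chitinase-like gene Chil3 fell by 3.14 (limma adjusted p = 0.00994). NC-5 and NC-6 held 18220 and 18160 FPKM of Chil3 against 836.5 to 1097 in the other NC samples, and without them the change was -1.73 (limma adjusted p = 0.0172). Without COM-4, COM-5 and COM-6 it did not pass (limma adjusted p = 0.139). The summed FPKM of the 5 markers ran from 1073 to 18250 in NC, from 924.2 to 2401 in COM and from 448.8 to 659.1 in COM+Met, the top of the NC range being NC-5 and NC-6, and none was at 0 in a whole group. In bulk RNA, fewer cells of a type and less RNA per cell cannot be told apart, and the part of either in the Ccr2 result was not tested.

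Ccr3 was listed near 0 throughout. Its highest value in any sample was 0.137 FPKM, in COM-3, and it was listed at 0 in 2 of 6 NC, 3 of 6 COM and 5 of 6 COM+Met samples. It passed the filter in no comparison. The exact permutation test, two-sided and not adjusted, gave p = 0.827 for COM against NC, p = 0.182 for COM+Met against COM and p = 0.0606 for COM+Met against NC. Of 11 eosinophil and basophil markers, 7 averaged at least 1 FPKM in NC, 2 in COM and 1 in COM+Met. Their summed FPKM was 69.1 to 134.8 in NC, 6.89 to 22.2 in COM and 3.44 to 7.94 in COM+Met, led in each group by Ear6. Epx, the eosinophil peroxidase, was listed at 0 in all COM and COM+Met samples. Their part in the Ccr3 values was not tested.

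Ccr7 rose more than any other receptor in COM against NC when all samples were used. Its lowest, median and highest FPKM were 0.824, 11.5 and 20.3 in NC, 61.2, 130 and 214.2 in COM, and 36.9, 55.7 and 73.3 in COM+Met. All COM and COM+Met samples were above all NC samples, NC-5 and NC-6 were the lowest of all at 1.999 and 0.824, and COM-1, COM-2 and COM-3, at 195.4 to 214.2, were the highest. The means were 9.94 ± 7.38 (SD, n = 6), 132.6 ± 77.1 (SD, n = 6) and 55.7 ± 11.8 (SD, n = 6). Ccr7 rose by 3.83 in COM against NC (SE 0.613, limma adjusted p = 0.000243), and by 2.94 without NC-5 and NC-6. It rose by 4.67 without COM-4, COM-5 and COM-6. Without COM-1, COM-2 and COM-3 it rose by 2.99 and Ccrl2 by 3.39, so the order of the pair turned. Against NC, COM+Met was higher by 2.80 (SE 0.532, limma adjusted p = 0.000365), and by 1.91 without NC-5 and NC-6.

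Between COM+Met and COM, the Ccr7 result depended on which COM samples were used. The change was -1.03 (SE 0.358, 95% interval -1.81 to -0.26, limma adjusted p = 0.0752) and did not pass the threshold. COM-4, COM-5 and COM-6, at 61.2 to 64.6 FPKM, lay inside the COM+Met range, and COM-1, COM-2 and COM-3 lay above all of it. Without COM-4, COM-5 and COM-6 the change was -1.87 (limma adjusted p = 1.48e-06), and without COM-1, COM-2 and COM-3 it was -0.19 (limma adjusted p = 0.422). Leaving out COM-4, COM-5 or COM-6 alone also took the change past the threshold, with adjusted p from 0.0256 to 0.0433, as did scaling by median-of-ratios size factors (limma adjusted p = 0.0351).

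Of the genes known from mature dendritic cells, which carry Ccr7 in the body, 4 were called higher in COM against NC and 1 lower, beside 17.7% of all genes. Fscn1, which bundles actin in their processes, averaged 8.92, 107.7 and 60.9 FPKM in NC, COM and COM+Met, and rose by 3.65 in COM against NC (limma adjusted p = 0.000107). Ccl22, a chemokine of these cells, averaged 28.2, 251.7 and 134.8 FPKM and rose by 3.57 (limma adjusted p = 0.000401), or by 2.57 without NC-5 and NC-6. Il12b, a subunit of interleukin-12, averaged 4.11, 183.3 and 120.1 FPKM and rose by 5.65 (limma adjusted p = 2.11e-06). Flt3, a growth factor receptor of dendritic cells, averaged 0.370 FPKM in NC and 2.49 in COM and rose by 1.26 (limma adjusted p = 0.00153), with 3.50 to 3.92 FPKM in COM-1, COM-2 and COM-3, without which it was below the filter. Ccl17, in contrast, fell by 1.45 (limma adjusted p = 0.0448), and by 2.39 without NC-5 and NC-6 (limma adjusted p = 2.69e-05). The fall of Ccl17 did not pass without COM-4, COM-5 and COM-6 or without COM-1, COM-2 and COM-3 (limma adjusted p = 0.181 and 0.111). The ratio of Ccr7 to Fscn1 stayed between 0.674 and 1.39 in all 18 samples, while Ccr7 itself spanned 0.824 to 214.2. The list held 12 markers, of which 9 were tested in COM against NC with a median change of 0.67 (all genes -0.27), and their summed FPKM was 30.7 to 227.7 in NC, 413.4 to 802.8 in COM and 268.5 to 456.2 in COM+Met. Cd209a was listed at 0 in all COM and COM+Met samples, and Zbtb46, a transcription factor of dendritic cells, reached at most 2.41 FPKM in any sample. The part of dendritic cells in the Ccr7 result was not tested.

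**Figure D3:**
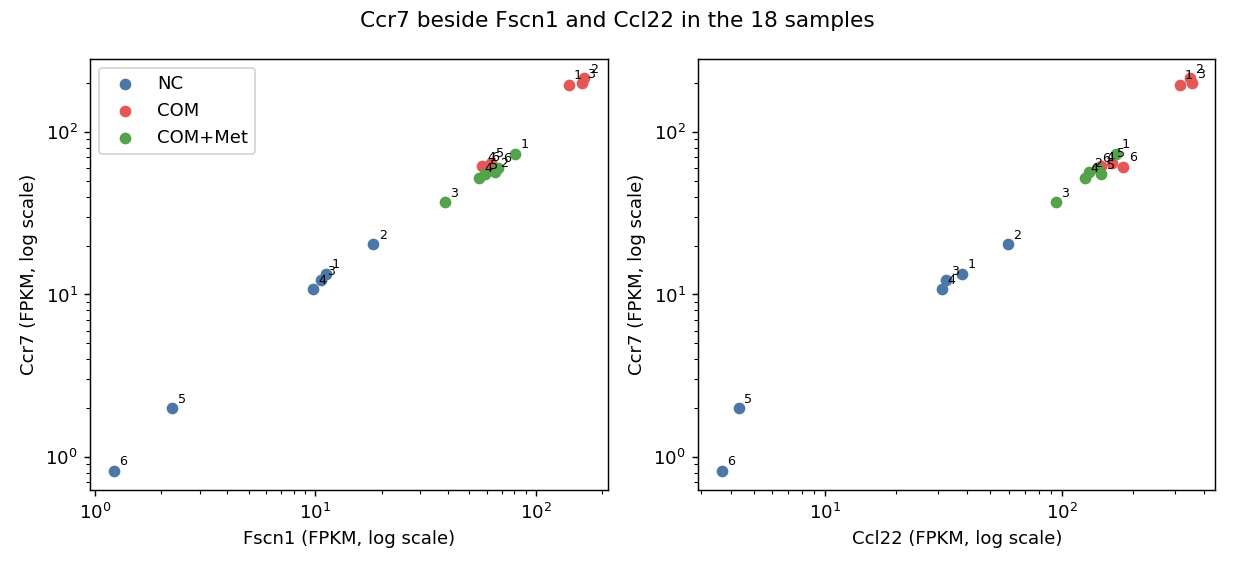
FPKM of Ccr7 (vertical axes, log scale) against that of Fscn1 (left) and Ccl22 (right, horizontal axes, log scale) in the 18 samples, coloured by group and numbered by replicate. The points follow 1 line in each panel, from NC-6 at the bottom to COM-1, COM-2 and COM-3 at the top.

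Ccrl2 rose with the crystals and was highest with Met. Its lowest, median and highest FPKM were 6.19, 12.8 and 22.6 in NC, 46.8, 83.8 and 146.0 in COM, and 158.9, 166.7 and 198.4 in COM+Met. The groups did not overlap in any of the 3 comparisons, but COM split into 46.8 to 48.9 in COM-1, COM-2 and COM-3 and 118.7 to 146.0 in the others. The means were 12.9 ± 6.35 (SD, n = 6), 90.2 ± 47.1 (SD, n = 6) and 170.4 ± 14.3 (SD, n = 6). Ccrl2 rose by 2.67 in COM against NC (SE 0.383, limma adjusted p = 0.000105), by 1.95 without COM-4, COM-5 and COM-6 and by 2.29 without NC-5 and NC-6. In COM+Met against NC it rose by 3.75 (SE 0.254, limma adjusted p = 2.66e-08). Against COM, COM+Met was higher by 1.08 (SE 0.297, limma adjusted p = 0.0296). That last call was lost, at adjusted p from 0.0562 to 0.0648, when any 1 of COM-1, COM-2, COM-3 or the 6 COM+Met samples was left out, and at 0.052 when genes were not filtered. The change was 1.80 without COM-4, COM-5 and COM-6 (limma adjusted p = 1.6e-09) and 0.36 without COM-1, COM-2 and COM-3 (limma adjusted p = 0.0265). It passed the test either way, but at well under 2-fold in the latter case.

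Cxcr4, the receptor for Cxcl12, did not differ beyond the spread of the samples in COM against NC. The lowest, median and highest FPKM were 30.2, 36.1 and 40.9 in NC, 14.8, 31.6 and 49.7 in COM, and 23.6, 26.5 and 30.2 in COM+Met. COM-1, COM-2 and COM-3, at 43.8 to 49.7, lay above every NC sample, and COM-4, COM-5 and COM-6, at 14.8 to 19.4, below every one. The means were 36.0 ± 4.69 (SD, n = 6), 31.9 ± 16.2 (SD, n = 6) and 26.8 ± 3.15 (SD, n = 6). Over all COM samples the change against NC was -0.32 (SE 0.292, 95% interval -0.95 to 0.31, limma adjusted p = 0.365). It was 0.37 without COM-4, COM-5 and COM-6 (limma adjusted p = 0.0166) and -1.01 without COM-1, COM-2 and COM-3 (limma adjusted p = 0.000164). Both subsets thus passed the test, in opposite directions, with p-values that leave out the spread between the subsets. COM+Met against COM behaved likewise, with -0.09 over all samples (SE 0.289, 95% interval -0.71 to 0.54, limma adjusted p = 0.872), -0.78 without COM-4, COM-5 and COM-6 (limma adjusted p = 1.72e-05) and 0.60 without COM-1, COM-2 and COM-3 (limma adjusted p = 0.00742). In COM+Met against NC, Cxcr4 fell by 0.41 (SE 0.0943, limma adjusted p = 0.00152), which is less than 2-fold. With samples scaled by median-of-ratios size factors this was -0.11 (limma adjusted p = 0.291), and with all 18 samples in 1 fit it did not pass either (limma adjusted p = 0.163).

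Cx3cr1, the receptor for the membrane-bound chemokine Cx3cl1, was low in all groups. The lowest, median and highest FPKM were 0.123, 2.47 and 3.05 in NC, 1.73, 2.93 and 4.27 in COM, and 0.482, 1.17 and 1.52 in COM+Met. NC-5 and NC-6, at 0.267 and 0.123, lay far below the other NC samples, which began at 2.03, and all COM samples lay above all COM+Met samples. The means were 1.88 ± 1.36 (SD, n = 6), 2.996 ± 1.29 (SD, n = 6) and 1.11 ± 0.362 (SD, n = 6). COM against NC gave 0.59 (SE 0.36, 95% interval -0.19 to 1.37, limma adjusted p = 0.183), and 0.04 without NC-5 and NC-6. With quantile normalisation it was 0.87 (limma adjusted p = 0.0287). Cx3cr1 fell by 0.87 in COM+Met against COM (SE 0.207, limma adjusted p = 0.015), which became adjusted p = 0.0647 with all 18 samples in 1 fit, and the change was -0.44 without COM-1, COM-2 and COM-3 (limma adjusted p = 0.0625). COM+Met against NC gave -0.28 (SE 0.332, 95% interval -1 to 0.44, limma adjusted p = 0.45), but -0.83 without NC-5 and NC-6 (limma adjusted p = 0.00014).

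Counted over the receptors, 4 of the 6 that passed the filter in COM against NC were called, meaning a change of 2-fold or more with an adjusted p under 0.05. Ccr7 and Ccrl2 were higher and Ccr1 and Ccr2 lower. Of all 10900 genes tested, 17.7% were called, 5.99% as higher and 11.7% as lower. The same 4 receptors were those whose groups did not overlap, which held for 38.2% of all genes, and those with an adjusted p below 0.05, which held for 53.3%. Ccr1 went under 2-fold, leaving 3 called, when COM-4, COM-5 and COM-6 were left out (12.8% of all genes called) and with size factors or sample weights. Leaving out COM-1, COM-2 and COM-3 gave 5 called, Cxcr4 being the added one (25.9% of all genes). In COM+Met against COM, 2 of 5 were called, Ccrl2 higher and Ccr1 lower, against 2.22% of 10364 genes (0.608% higher and 1.61% lower). Cx3cr1 passed the adjusted p but not the fold. An adjusted p below 0.05 was reached by 13.4% of genes, and 11.2% had groups that did not overlap, among them these 3 receptors. Without COM-1, COM-2 and COM-3 none of the receptors was called in this comparison, against 2.22% of all genes. Without COM-4, COM-5 and COM-6 there were 4, against 7.43% of all genes. In COM+Met against NC, 4 of 6 were called, again Ccr7 and Ccrl2 higher and Ccr1 and Ccr2 lower, against 19.3% of 10786 genes (5.66% higher and 13.6% lower). Cxcr4 passed the adjusted p alone. Groups did not overlap for 57.6% of genes, and an adjusted p below 0.05 was reached by 75.2%. The comparisons share their NC, COM or COM+Met samples and are not independent of each other.

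The median log2 change of all tested genes was -0.27 in COM against NC, 0.003 in COM+Met against COM and -0.26 in COM+Met against NC. With median-of-ratios size factors the first and last medians moved to 0.005 and 0.011, and the calls in COM against NC went from 653 higher and 1273 lower to 864 and 821, those in COM+Met against NC from 611 and 1467 to 839 and 985. Relative to the median of all genes, COM against NC was 4.10 for Ccr7, 2.94 for Ccrl2, -0.94 for Ccr1, -2.52 for Ccr2, -0.05 for Cxcr4 and 0.86 for Cx3cr1. For COM+Met against NC the values were 3.06, 4.01, -2.19, -2.70, -0.15 and -0.02. Ccr1 thus stayed lower but went under 2-fold in the first of these comparisons.

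**Figure D4:**
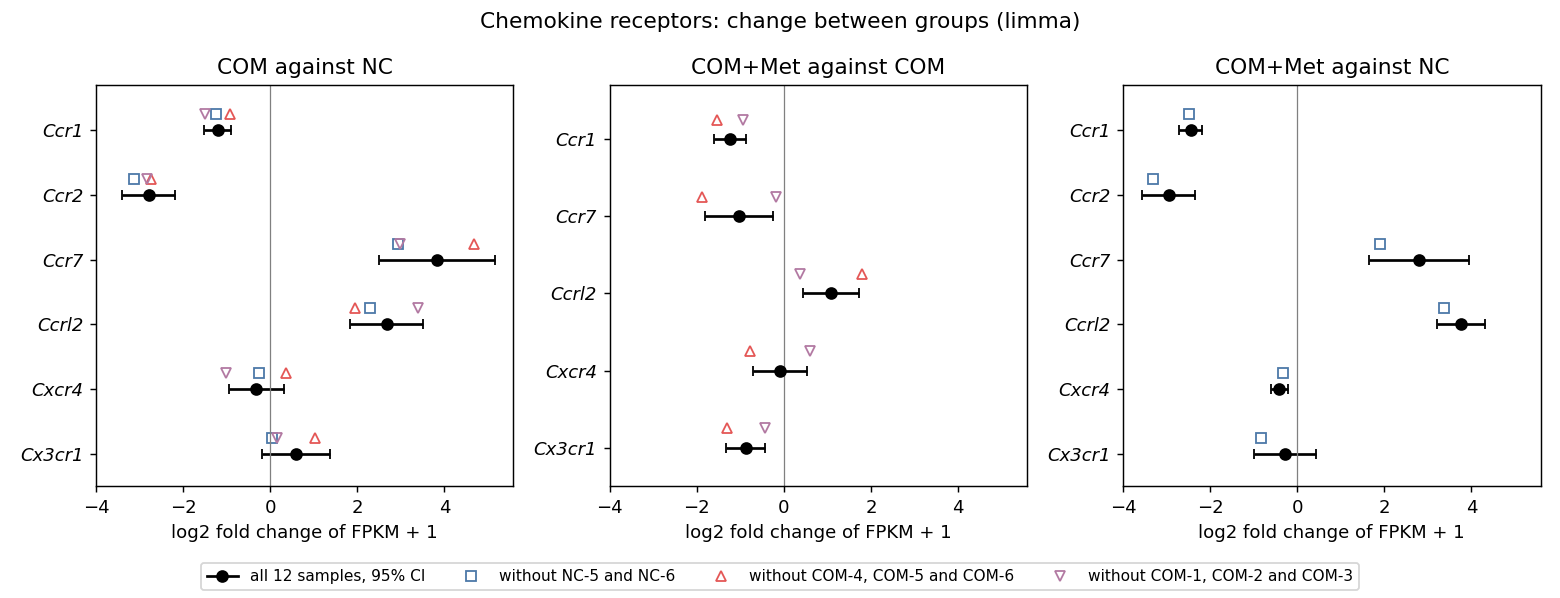
Change of each tested receptor between groups on the scale of log2(FPKM + 1) (horizontal axes, 1 panel a comparison). Filled points with bars are the limma estimates and 95% intervals from all 12 samples, and open symbols leave out NC-5 and NC-6, COM-4 to COM-6, or COM-1 to COM-3. The open symbols of Cxcr4 fall on both sides of 0 in the first 2 panels, whereas those of Ccr1, Ccr2, Ccr7 and Ccrl2 stay on 1 side.

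Among the further chemokine receptors examined, Cxcr2, a neutrophil receptor, averaged 2.26 FPKM in NC, 0.361 in COM and 0.0636 in COM+Met. It fell by 1.28 in COM against NC (SE 0.15, limma adjusted p = 2.11e-05) and by 1.61 in COM+Met against NC (SE 0.0942, limma adjusted p = 7.05e-09). Of 12 neutrophil markers, 9 were tested in COM against NC. Lcn2 and Mmp9 were called higher and 4 genes lower, S100a9 and Ngp among them, beside 17.7% of all genes. Mmp9 stood at 56.3 to 61.1 FPKM in COM-1, COM-2 and COM-3 and at 5.81 to 7.01 in the other 3, and was not called without NC-5 and NC-6 (limma adjusted p = 0.155) or without COM-1, COM-2 and COM-3 (limma adjusted p = 0.424). Of 7 tested in COM+Met against COM, 5 were called lower and none higher, beside 2.22% of all genes. Without COM-1, COM-2 and COM-3 none of these 5 fell by 2-fold or more, Mmp9 and S100a9 changing by -0.54 and -0.45. Of 9 tested in COM+Met against NC, 6 were called lower and 1 higher, beside 19.3% of all genes. Mpo, Retnlg and Elane were listed at 0 in all COM and COM+Met samples. The summed FPKM of the 12 markers was 559.9 to 1070.0 in NC, 1230.0 to 1851 in COM and 728.2 to 853.6 in COM+Met. Mmp8 led that sum in NC with a mean of 336, and Lcn2 led it in COM and COM+Met with means of 1133 and 678.3. Lcn2 averaged 23.5 FPKM in NC, whereas S100a9 averaged 171.3 in NC and 8.43 in COM. The part of these markers in the Cxcr2 values was not tested.

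The ligands of the receptors changed in both directions. Of 17 ligands, 10 were tested in COM against NC, of which 2 were called higher and 1 lower, beside 17.7% of all genes. The median change of the ligands was 0.32 against -0.27 over all genes. In COM+Met against COM 1 of 9 was called, beside 2.22% of all genes. In COM+Met against NC 5 of 8 were higher and 2 lower, beside 19.3% of all genes, with a median of 1.23 against -0.26. Ligands of Ccr1 parted. Ccl5 lay at 3.51 to 16.0 FPKM in NC, 2849 to 11290 in COM and 7581 to 8631 in COM+Met, and rose by 9.12 in COM against NC (SE 0.42, limma adjusted p = 1.4e-08). Ccl6 lay at 2778 to 4241 FPKM in NC, 434.1 to 608.9 in COM and 256.7 to 617.7 in COM+Met, and fell by 2.56 in COM against NC (SE 0.145, limma adjusted p = 5.61e-08). Ccl9 lay at 114.3 to 284.0 FPKM in NC, 68.2 to 152.4 in COM and 38.7 to 44.8 in COM+Met. It fell by 1.32 in COM+Met against COM (SE 0.213, limma adjusted p = 0.00192), the 1 ligand called in that comparison, and by 0.81 without COM-1, COM-2 and COM-3. Ccl3 did not pass the test in COM against NC (1.201, limma adjusted p = 0.136), though it did without COM-1, COM-2 and COM-3 (2.31, limma adjusted p = 0.0146), and rose by 2.10 in COM+Met against NC (limma adjusted p = 0.00172).

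Ligands of Ccr2 were split between the COM samples in the opposite sense to Ccr7. Ccl2, the main ligand of Ccr2, lay at 3.78 to 27.2 FPKM in NC, and in COM at 5.07 to 8.64 in COM-1, COM-2 and COM-3 but 165.6 to 286.6 in the other 3. It was 100.7 to 149.8 in COM+Met. The change in COM against NC, 1.63 (SE 1.06, limma adjusted p = 0.208), did not pass, except without COM-1, COM-2 and COM-3 (4.12, limma adjusted p = 0.000162), and that in COM+Met against NC was a rise of 3.25 (SE 0.388, limma adjusted p = 6.09e-06). Ccl12 was listed at 0 in all NC samples and was called higher in COM (limma adjusted p = 0.0336, or 0.0884 without NC-5 and NC-6), where it was at 0 in COM-1 and COM-2, 0.323 in COM-3 and 4.61 to 6.13 in the others. Ccl7 lay at 0.617 to 8.25 FPKM in NC, 0.0772 to 0.809 in COM-1, COM-2 and COM-3, and 19.3 to 35.8 in the other 3, with a change of 0.59 over all (limma adjusted p = 0.591). It was lower without COM-4, COM-5 and COM-6 (-1.48, limma adjusted p = 0.0328) and higher without COM-1, COM-2 and COM-3 (2.66, limma adjusted p = 0.00142).

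Most other ligands on the list were low in BMDMs, though Ccr3 also binds Ccl5 and Ccl7, described above. Ccl19 and Ccl21a, the ligands of Ccr7, were listed at 0 in all 18 samples, as were the Ccr3 ligands Ccl11 and Ccl26, and Ccl24, another of its ligands, reached at most 1.07 FPKM. Chemerin, the ligand of Ccrl2 encoded by Rarres2, reached at most 0.858 FPKM and was listed at 0 in all COM+Met samples. Cxcl12 reached at most 3.02 FPKM. Cx3cl1 lay between 0.976 and 4.98 FPKM and fell by 0.79 in COM+Met against COM (limma adjusted p = 0.0391), which did not pass without COM-1, COM-2 and COM-3 (limma adjusted p = 0.218). These are values in BMDMs, and ligands made by the TECs were not measured here.

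**Figure D5:**
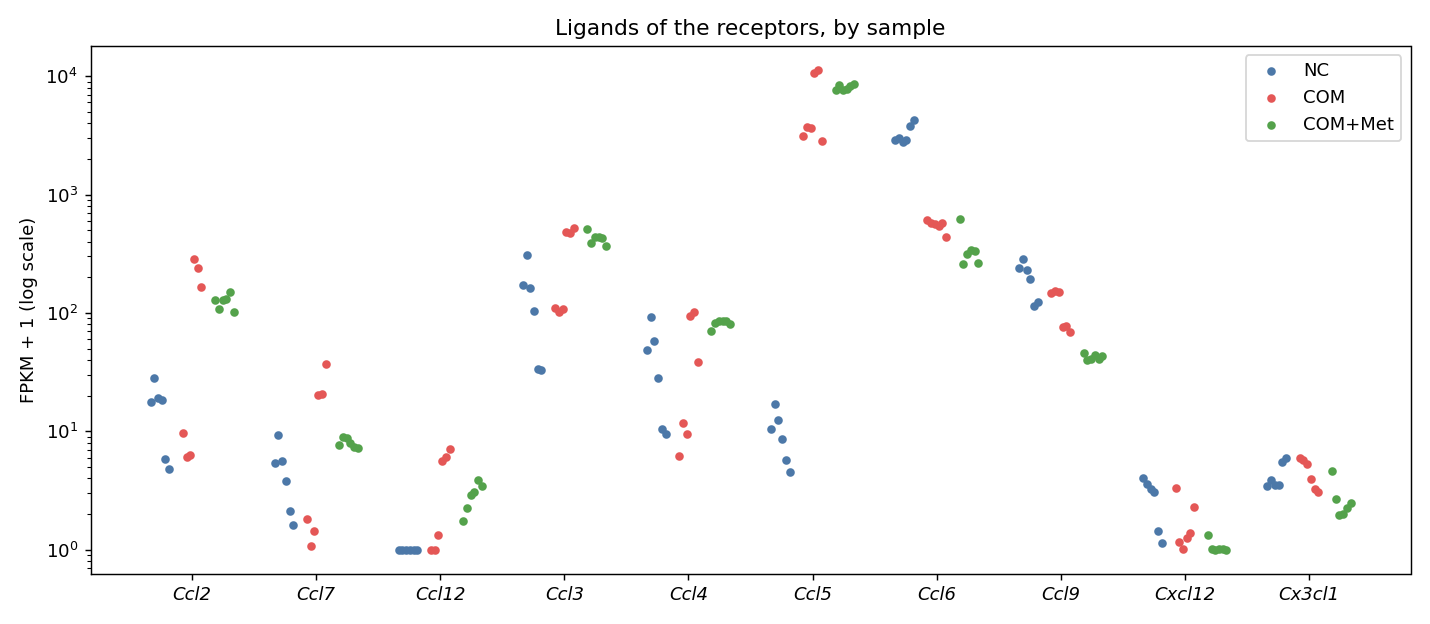
FPKM + 1 of 10 ligands (vertical axis, log scale) in the NC, COM and COM+Met samples (1 point a sample). Ccl5 lies far higher and Ccl6 lower in both crystal groups than in NC. Ccl2, Ccl3, Ccl4, Ccl7, Ccl9 and Ccl12 are among those that fall into separate clusters within COM.

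Of 24 genes that carry the signal of the receptors, all tested, 1 was called higher and 2 lower in COM against NC, beside 17.7% of all genes, with a median log2 change of -0.50 against -0.27 over all genes. Plcb2, a phospholipase driven by G protein subunits, fell by 1.504 (limma adjusted p = 2.37e-05) and Elmo1, which helps to activate Rac in moving cells, by 1.35 (limma adjusted p = 1.48e-06), whereas the haematopoietic GTPase Rac2 rose by 1.02 (limma adjusted p = 0.000113), or by 0.98 without NC-5 and NC-6 and 0.89 without COM-1, COM-2 and COM-3. The kinase Fgr alone was called in COM+Met against COM, with a fall of 1.14 (limma adjusted p = 0.00279), and at -0.68 without COM-1, COM-2 and COM-3. Of the 24, 5 were called in COM+Met against NC, all lower, beside 19.3% of all genes. Of 13 genes tested on the list of receptor desensitisation, 1 was called higher and 4 lower in COM against NC, beside 17.7% of all genes. The median of the 13 was -0.75. Rgs2 fell by 1.85 (limma adjusted p = 8.29e-06) and the receptor kinases Grk5 and Grk6 by 1.36 and 1.28 (limma adjusted p = 0.000348 and 0.00969), or by 0.83 and 0.49 without COM-4, COM-5 and COM-6, and Rgs1, which like Rgs2 shortens G protein signals, rose by 1.37 (limma adjusted p = 0.0106), which did not pass without NC-5 and NC-6 (0.0682) or without COM-4, COM-5 and COM-6 (0.112). None was called in COM+Met against COM, where 4 passed the adjusted p alone, all lower. In COM+Met against NC, 1 was called higher and 7 lower, beside 19.3% of all genes.

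Of 10 receptors of other chemoattractants tested in COM against NC, 2 were called, beside 17.7% of all genes, and their median change was 0.48. Fpr2, a receptor for formylated peptides, rose (1.94, limma adjusted p = 0.000556) and the complement receptor C5ar2 fell (-1.09, limma adjusted p = 0.000341). C5ar2 stood at 3.227 and 2.825 FPKM in NC-5 and NC-6, 0.966 to 1.461 in the other NC samples and 0.197 to 0.358 in COM. Without NC-5 and NC-6 it was below the filter and not tested. Against COM, in COM+Met Ltb4r1, which binds leukotriene B4, fell by 1.98 (limma adjusted p = 0.0174) and Fpr1, another receptor for formylated peptides, by 1.04 (limma adjusted p = 0.00192), with no gene of the list called higher. Ltb4r1 stood at 14.5 to 15.5 FPKM in COM-1, COM-2 and COM-3, 1.28 to 3.35 in the other COM samples and 0.644 to 1.11 in COM+Met, so that without COM-1, COM-2 and COM-3 it fell by 0.80. Fpr1 fell by 0.75 without COM-4, COM-5 and COM-6.

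The genes most like each receptor were sought by the Pearson correlation of log2(FPKM + 1) over the 18 samples, a description that also reflects the 3 groups and the split within them. For Ccr7 they were Fscn1 (r = 0.995), Ccl22 (0.991) and Apol7c (0.986). Within the groups, Ccr7 and Fscn1 correlated at 0.999 in NC, 0.997 in COM and 0.993 in COM+Met. Ccrl2 was most like Vnn3 (0.993), Gbp5 (0.992) and Cflar (0.991). Gbp5, a guanylate-binding protein induced by interferon, averaged 4.62 FPKM in NC, 170.1 in COM and 268.7 in COM+Met, and it correlated with Ccrl2 at 0.949, 0.980 and 0.888 within the groups. Ccr1 was most like Lsp1 (0.983), Ugdh (0.977) and Ikzf1 (0.977), but only in COM was it close to all 3, at 0.918 to 0.983, with -0.21 to 0.45 in NC. Ccr2 was most like Ptger3 (0.992), Proz (0.987) and Gpr34 (0.986), at 0.913 to 0.981 within NC. With these genes it stood at only 0.489 to 0.665 within COM and -0.215 to 0.42 within COM+Met, where Ccr2 was near 0. For Cxcr4 the likeness was lower, with Fbxo33 and Entpd5 at 0.940 and Crebl2 at 0.932. Cx3cr1 was most like Lpcat2 (0.947), Ankrd66 (0.925) and 2510009E07Rik (0.923).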

How the data were processed

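RNA-seq of BMDMs covered 18 samples in the groups NC, COM and COM+Met (n = 6 each), assigned from the sample labels. The authors deposited FPKM values per gene and sample, with replicates kept apart. Bowtie 0.12.2 and 2 builds, mm8 and mm9, are named in the submitters' processing notes with no role, and no source used here gives the quantifier, annotation or filters. FPKM is scaled to the sample total, so a gene can fall in FPKM when abundant genes rise. Low values did not share a common step (the commonest ratio between samples covered 0.204% to 0.412% of low genes), so reads could not be recovered.

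Values were transformed to log2(FPKM + 1). Genes averaging 1 FPKM or more in the 12 samples of a comparison entered limma 3.58.1 (R 4.3.3, eBayes with trend), p-values being adjusted by Benjamini-Hochberg over all genes tested, and each comparison was fitted on its own 12 samples. The script was tested on simulated data. Calls required a 2-fold change or more with an adjusted p under 0.05. Single receptors below the filter were compared by an exact permutation test, two-sided, over all 924 splits, whose smallest p is 0.00216. The receptors and gene lists were chosen with earlier results of these data known. For 1 gene of these lists results are not reported here. All receptors were described, and from each list at most the 4 called genes with the largest change per comparison, the ligands of each receptor and the 3 genes most like it; the markers Adgre1, Csf1r, Cd68, Lyz2, Cdh1, Epx, Cd209a, Zbtb46, Mpo, Retnlg and Elane were named outside that rule, after their values were seen.

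Samples with the same number did not deviate together (correlations -0.222 to 0.0569 over all comparisons), so replicate numbers were not used as a block. Alternatives were other pseudocounts, filters and scalings, TPM, size factors, quantile normalisation, a replicate block, 1 fit of all samples, sample weights, and leaving out samples. Leaving out COM-1, COM-2 and COM-3 was added after seeing the data. Leaving out NC-5 and NC-6 or either set of COM samples follows the splits seen in these data. The p-values of those fits leave out the spread between the sets. Gene positions came from GENCODE M21 on GRCm38 and promoters from RefSeq on GRCm38.p6. The processing notes name neither build, and only gene identifiers were joined. Python 3.11.15, pandas 2.3.3, numpy 2.4.6, scipy 1.17.1 and matplotlib 3.10.9 were used.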

Additional observations from a re-analysis of the deposited data

Results flagged for a closer look

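Among the 21 sets of 6 values (7 receptors in 3 groups), 3 had a sample whose gap to the nearest other exceeded the 95% limit of Dixon's test, where chance gives about 1 in 20. All 3 were in COM+Met. Ccrl2 was 198 FPKM in COM+Met-1, against 159 to 169 in the others. Ccr2 was 0.127 FPKM in COM+Met-2, against 0.0212 to 0.054. Ccr3 was 0.0106 FPKM in COM+Met-1, where the others were listed at 0. With all the others tied at 0, any value above 0 exceeds the limit, so the rate of 1 in 20 does not apply to Ccr3. Ccr2 and Ccr3 lie far below 1 FPKM, and the reads behind their values are unknown.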

How the results depend on the processing

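Of 573 values recomputed under the alternatives, 512 kept their direction and their side of the threshold, or, for counts and values without a test, stayed close to the value reported. In COM against NC and in COM+Met against NC, the direction and the test of Ccr1, Ccr7 and Ccrl2 held under all alternatives run, as did those of Ccr2 wherever it could be tested. COM+Met against COM was the least stable. Instead of 2 receptors called, there was 1 with no filter (1.05% of all genes called), 1 with a replicate block (1.95%), 4 with sample weights (6.94%), 4 without COM-4, COM-5 and COM-6 (7.43%), 0 without COM-1, COM-2 and COM-3 (2.22%), and 1 to 3 when single samples were left out. With the replicate block, the adjusted p in this comparison was 0.0637 for Ccrl2 and 0.0537 for Cx3cr1. Of 6 samples, 0, 0 and 1 correlated best with their own number in the 3 comparisons, and the block changed no other call. The sign of Cxcr4 in COM against NC turned with sample weights (0.39) and without COM-4, COM-5 and COM-6 (0.37), and in COM+Met against COM it turned without COM-1, COM-2 and COM-3 (0.60) and ranged from -0.267 to 0.069 when single samples were left out. Cx3cr1 in COM+Met against NC was 0.0449 with quantile normalisation. Ccr3 in COM against NC, 0.0089 over all samples, was -0.0134 without NC-5 and NC-6, -0.0327 without COM-1, COM-2 and COM-3, and -0.0174 to 0.025 when single samples were left out. The ratio of group means gave larger changes for low genes, such as -5.46 for Ccr2 in COM against NC and -7.23 in COM+Met against NC. A filter of 5 FPKM left Cx3cr1 untested in every comparison and Ccr2 in those where it had been tested. The block, the sample weights and the single fit gave no value for receptors below the filter. The cause of these changes was not tested. Depth is unknown, so no detection limit can be set for Ccr2 and Ccr3.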
